A study of Mus musculus with 12 samples.

Results

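Bex1, Xkrx, Itm2a, Sox4 and Atp1b1 are the 5 genes described here, out of 18193 genes represented on the array. They were chosen by their SKG and BALB signal values: in an earlier look at these same arrays they were among the largest losses of transcript in CD4+ T cells of SKG mice against BALB/c mice. Their SKG and BALB values are therefore given as a description, with no test. The array holds 17 probe sets annotated to one of them alone, 1 for Bex1, 1 for Xkrx, 2 for Itm2a, 8 for Sox4 and 5 for Atp1b1.

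RNA of CD4+ T cells from female mice was measured on 12 Affymetrix mouse arrays, 3 in each of 4 groups. SKG mice, which carry a mutated Zap70 kinase on the BALB/c background and develop autoimmune arthritis, were 40 weeks old, and their FR4- CD4+ cells came from lymph node and were stimulated, by label, with ionomycin plus PMA. The BALB group was BALB/c mice of the same age with the same stimulation. Its replicates 2 and 3 were FR4- CD4+ cells of lymph node, whereas replicate 1 carries only the CD4+ label and mixes spleen with lymph node. FR4 is a folate receptor found on many regulatory T cells. In the IL-6 KO transfer, CD4 T cells of IL-6 KO BALB/c mice were given to BALB/c hosts lacking both IL-6 and RAG2. In the IFNg KO transfer, CD4 T cells of IFNg KO BALB/c mice were given to RAG2 KO BALB/c hosts, which have no T or B cells of their own. Both transfers are labelled with an age of 7 weeks, were taken from spleen 7 days after transfer, and carry no label of stimulation. No transfer of unmodified cells is among the 12 arrays, and donor and host genotype differ together between the transfers. The labels name no animal for any replicate. The p-values therefore describe array-to-array spread only, and this spread could be technical.

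The 5 genes belong to different families. Bex1 encodes a small adaptor protein of the brain-expressed X-linked family, known from neurotrophin signalling. Xkrx encodes a multi-pass membrane protein related to XK, the blood group protein, and to the lipid scramblase Xkr8. Itm2a is a membrane protein that is switched on in thymocytes during positive selection and is a known target of GATA3. Sox4 is an HMG-box transcription factor needed by lymphocyte progenitors. In helper T cells it is induced by TGF-beta and is known to hold back GATA3 and the Th2 cytokine Il5. Atp1b1 is the beta subunit that brings the Na+/K+-ATPase, the sodium pump, to the cell surface.

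The 5 transcripts were chosen as large falls in the same comparison, and Bex1 has a neighbour with nearly the same upstream sequence. The sequences just before the starts of these genes are therefore shown. All are RefSeq, build GRCm38.p6, 250 bases ending at the base before the annotated start, 5' to 3' on the gene's strand. Bex1 (chrX:136215514-136215763, minus strand) and its relative Bex4 (chrX:136138746-136138995, plus strand) are aligned to each other, with capitals on the bases that differ or have no partner inside the aligned stretch.
Bex1: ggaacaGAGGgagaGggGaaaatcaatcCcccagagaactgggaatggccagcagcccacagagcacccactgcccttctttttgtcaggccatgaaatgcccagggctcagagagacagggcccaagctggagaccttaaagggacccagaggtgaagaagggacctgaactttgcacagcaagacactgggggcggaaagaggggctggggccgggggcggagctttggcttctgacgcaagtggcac
Bex4: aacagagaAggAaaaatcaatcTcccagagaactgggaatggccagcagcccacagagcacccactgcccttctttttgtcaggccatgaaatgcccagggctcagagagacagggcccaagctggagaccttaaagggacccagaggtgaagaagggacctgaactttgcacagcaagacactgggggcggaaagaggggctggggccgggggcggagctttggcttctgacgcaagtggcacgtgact
Of 244 aligned bases 241, or 98.8%, were identical. Bex1 shared only 62.2% of aligned bases with Bex2 and 61.1% with Bex3. Bex1 and Bex4 thus have almost the same start region, and their array values are set side by side further on.

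Itm2a (chrX:107403361-107403610, minus strand) and Xkrx (chrX:134162960-134163209, minus strand) are shown for the GATA motif, with AGATAA, here read as TTATCT on the other strand, in capitals.
Itm2a: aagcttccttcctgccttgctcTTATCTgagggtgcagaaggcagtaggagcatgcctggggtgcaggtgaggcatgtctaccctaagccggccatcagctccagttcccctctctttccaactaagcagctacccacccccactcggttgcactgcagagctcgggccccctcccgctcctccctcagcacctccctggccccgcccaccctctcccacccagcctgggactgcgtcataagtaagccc
Xkrx: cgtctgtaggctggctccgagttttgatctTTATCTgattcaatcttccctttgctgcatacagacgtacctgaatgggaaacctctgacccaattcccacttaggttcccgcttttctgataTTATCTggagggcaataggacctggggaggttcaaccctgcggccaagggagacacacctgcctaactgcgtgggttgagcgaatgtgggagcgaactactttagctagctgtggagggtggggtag
Itm2a held 1 match, 228 bases before the start, and Xkrx held 2, at 220 and 127 bases. On both strands AGATAA occurred in 10.0% of all 32851 windows of this length, and 2 or more matches occurred in 0.94%. Bex1, Sox4 and Atp1b1 had no match in this window. Sox4 (chr13:28953700-28953949, minus strand) is shown for the CCAAT box, with CCAAT or its reverse ATTGG in capitals.
Sox4: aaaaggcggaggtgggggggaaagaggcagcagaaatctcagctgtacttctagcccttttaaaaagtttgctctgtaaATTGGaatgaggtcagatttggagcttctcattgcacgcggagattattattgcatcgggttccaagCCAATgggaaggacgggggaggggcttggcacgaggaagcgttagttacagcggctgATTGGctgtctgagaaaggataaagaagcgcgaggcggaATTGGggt
Sox4 held 4 matches, at 171, 104, 47 and 8 bases before the start. CCAAT on either strand occurred in 33.8% of windows and 4 or more matches in 0.84%. Atp1b1 (chr1:164458356-164458605, minus strand) and Xkrx held 1 CCAAT each, at 81 and 160 bases, and Bex1 and Itm2a none. The Atp1b1 window had 24 CpG dinucleotides, Sox4 11, Xkrx 8, Itm2a 6 and Bex1 4, against a median of 6 over all windows. The motifs do not overlap each other and were picked after the sequences had been read. A match describes letters and is neither a binding site nor a cause.

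Array quality set some arrays apart. The median intensity ran from 15.7 to 27.6 over the 12 arrays, and arrays of a group correlated at 0.970 to 0.990. The actin 3'/5' signal ratio was 2.95 to 3.98 in BALB and 1.93 to 2.63 in SKG, so these groups did not overlap in it. They did overlap in the Gapdh 3'/5' ratio, at 2.86 to 3.28 in BALB and 2.57 to 3.03 in SKG. In the transfers the actin ratio was 5.13 in IL-6 KO replicate 3 and 3.81 in IFNg KO replicate 3, and 1.60 to 1.67 in the other 4 arrays. The member values that rest on these replicates, in the transfer comparison and across the 4 groups, are also given without them. T cell markers were present in all groups: of 6 listed 5 were analysed, none below the tested floor, with a summed intensity of 4797 to 5696 in BALB, 5982 to 6811 in SKG and 6650 to 7524 in the transfers. The BALB and SKG sums did not overlap. By limma 0 of these 5 passed in SKG against BALB, where 27.5% of all genes did. Under an unadjusted p of 0.05 was 1, Cd3g (1.06 ± 0.35, limma adjusted p = 0.051), against 38.9% of all genes. Blocking by replicate number brought Cd3g past the threshold (adjusted p = 0.00055). Ifng, the gene deleted by label in the IFNg KO transfer, was lower there by limma (log2 difference -4.16, adjusted p = 0.0011). Il6 had a difference of -1.13 between IFNg KO and IL-6 KO transfers (limma adjusted p = 1), with the higher mean in the IL-6 KO arrays. Where the deletions lie in Ifng and Il6 is not labelled, and Il6 does not serve as a check if its probe set lies elsewhere in the gene.

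Bex1 had the lowest fitted SKG minus BALB difference with 16 added and all 6 arrays, a place it did not keep under every setting. The deposited intensity of its probe set was 1843.6, 1440.1 and 1762.5 in BALB replicates 1 to 3, and 75.6, 61.5 and 94.6 in SKG replicates 1 to 3. All BALB arrays were high and all SKG arrays low, and the lowest BALB value was 15.2 times the highest SKG value. On the scale of log2(intensity + 16) after quantile normalization, the SKG minus BALB difference was -4.13 ± 0.18 (SE, n = 3 per group), rank 1 from the lowest of 12075 genes tested. With 1 added, Xkrx was lower than Bex1 (-5.40 against -4.37), and without SKG replicate 3 so were Atp1b1 (-4.36) and Xkrx (-4.22 against -4.15). In the transfers Bex1 read 259.1, 229.7 and 515.4 with IL-6 KO cells and 296.5, 201.7 and 239.5 with IFNg KO cells. These 6 arrays lay above every SKG array and below every BALB array, and the transfer groups overlapped, with IL-6 KO replicate 3 the highest.

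Xkrx had a dim signal outside BALB. It read 350.7, 249.6 and 602.7 in BALB and 0.7, 7.7 and 45.2 in SKG. The BALB arrays all lay above the SKG arrays, while within SKG the values spread widely. The log2 difference was -3.76 ± 0.41 (SE, n = 3 per group), rank 2 of all genes. It depends on the constant added before taking logs, being -5.40 with 1 and -2.47 with 64, because 2 of the SKG values are close to 0. Xkrx read 32.3, 14 and 36.0 in the IL-6 KO transfer and 26.8, 27.0 and 68.8 in the IFNg KO transfer. All of these lay below every BALB array and, apart from IFNg KO replicate 3, inside the SKG range. The transfer groups overlapped each other.

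Itm2a was bright in BALB, at 8241.3, 8018.9 and 11008.8, and read 567.0, 560.7 and 1087.0 in SKG. The groups were far apart, with the lowest BALB array 7.38 times the highest SKG array. The log2 difference was -3.57 ± 0.16 (SE, n = 3 per group), rank 4. Itm2a kept intermediate levels after transfer, at 2474.9, 2156.6 and 986.0 with IL-6 KO cells and 1569.3, 1263.7 and 1136.0 with IFNg KO cells. IL-6 KO replicate 3 was the lowest of the 6 and lay below SKG replicate 3 on this unnormalized scale, and the transfer groups overlapped through it.

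Sox4 had narrow ranges in SKG and BALB. It read 1998.5, 2010.8 and 2907.9 in BALB and 194.8, 154.0 and 228.8 in SKG. The lowest BALB value was 8.73 times the highest SKG value. The log2 difference was -3.40 ± 0.16 (SE, n = 3 per group), rank 8. In the transfers Sox4 was lower still, at 154.4, 123.8 and 39.7 with IL-6 KO cells and 134.8, 99.1 and 54.7 with IFNg KO cells. Replicate 3 was the lowest array in both transfer groups.

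Atp1b1 read 2484.8, 2314.3 and 3290.7 in BALB and 71.6, 134.9 and 749.8 in SKG. The groups did not overlap, but SKG replicate 3 stood well above the other SKG arrays. The log2 difference was -3.57 ± 0.56 (SE, n = 3 per group), rank 3, and without SKG replicate 3 it was -4.36. Atp1b1 read 280.1, 219.0 and 292.8 in the IL-6 KO transfer and 193.9, 155.8 and 234.0 in the IFNg KO transfer. All 6 transfer arrays lay inside the wide SKG range.

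**Figure D1:**
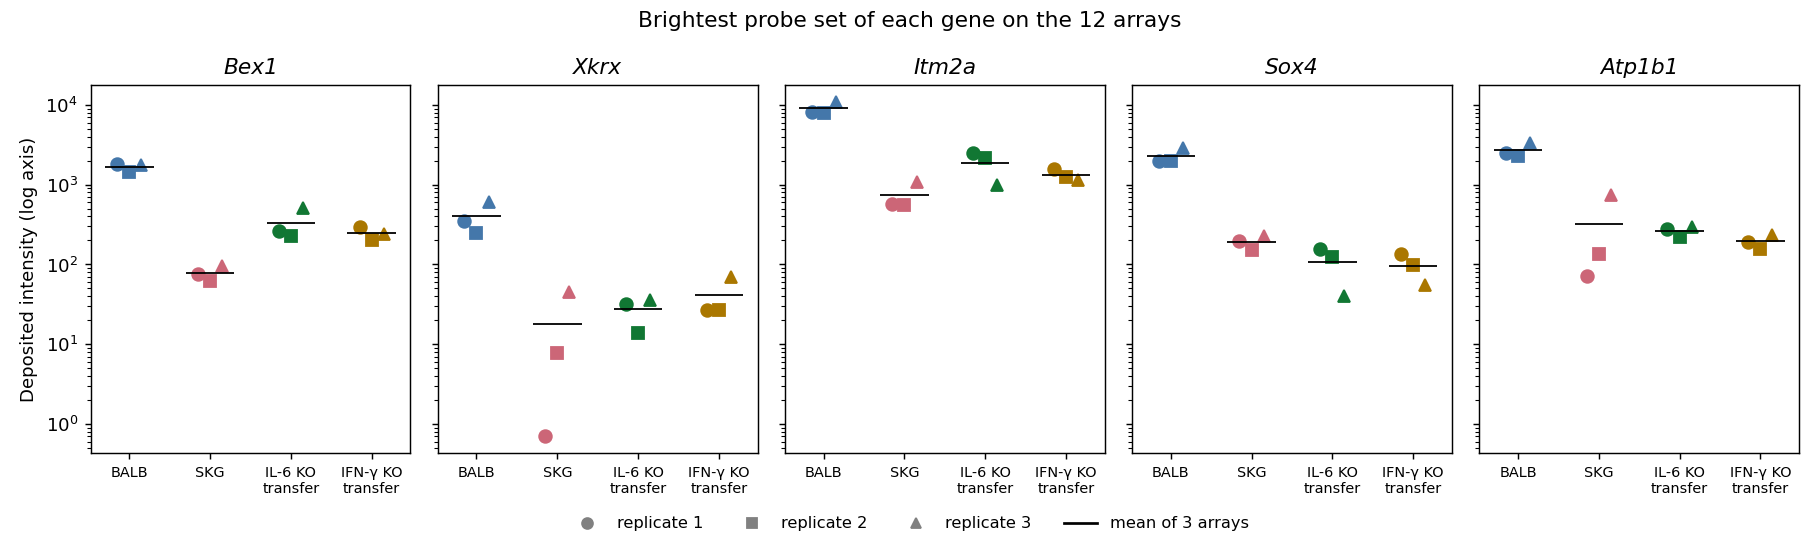
Deposited intensity (log axis) of the brightest probe set of each gene, by group, with 1 point per array and a line at the mean of 3 arrays. BALB arrays are the highest for all 5 genes, and the SKG points of Xkrx and Atp1b1 spread far more than those of Bex1 and Sox4.

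The SKG against BALB comparison was broad: limma called 11.8% of genes lower and 15.7% higher (adjusted p under 0.05), together 27.5%, and 38.9% were under an unadjusted p of 0.05. All SKG arrays lay below all BALB arrays in 18.4% of genes and above them in 24.9%. With the replicate number as a block 14.7% were lower and 19.9% higher, and with replicates 1 and 2 of both groups alone 18.3% were lower and 23.8% higher. All 5 genes did not overlap between the groups, which the choice of them fixes. Between the 5 genes in rank lay Gpat3 at -3.52, Zcchc12 at -3.46 and Cnksr3 at -3.42, which are not among them, and just past Sox4 came Tax1bp3 at -3.26 and Klf2 at -3.22. The cells are bulk samples, so fewer cells of a type and less RNA per cell cannot be told apart.

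**Figure D2:**
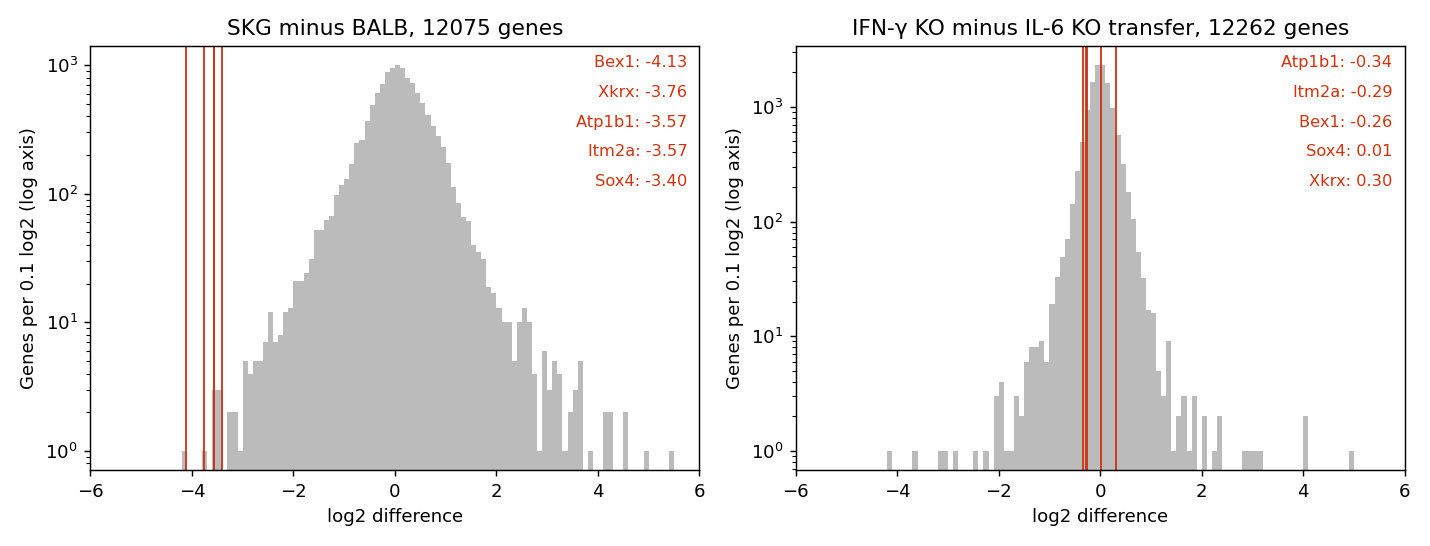
Histograms of the log2 difference of every tested gene (log count axis) for SKG minus BALB, left, and IFNg KO minus IL-6 KO transfer, right, with red lines at the 5 genes. The lines lie between -4.13 and -3.40 at the low edge on the left and between -0.34 and 0.30, near the middle, on the right.

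Other probe sets of the same genes give a second reading of each transcript. The other Itm2a probe set read 2598.0, 2585.0 and 3939.8 in BALB and 135.9, 155.9 and 352.0 in SKG, a log2 difference of -3.75 ± 0.23 (SE). Of the 8 Sox4 probe sets 6 lay above the tested floor, and their differences ran from -3.40 to -0.99. The differences of -1.58, -1.19 and -0.99 came from dim probe sets: the one at -0.99 read 37.1 to 45.3 in BALB. A brighter probe set, at 302.7 to 435.5 in BALB, gave -2.39. The median of the Sox4 probe sets gave -1.13 in place of -3.40. Of the 5 Atp1b1 probe sets 4 gave -4.49 to -3.57, and the fifth, at 10.7 to 24.8 in BALB and 8.7 to 17.1 in SKG, gave -0.11 ± 0.29 (SE). That probe set was dim on every array, and its groups overlapped. Bex1 and Xkrx rest on 1 probe set each.

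**Figure D3:**
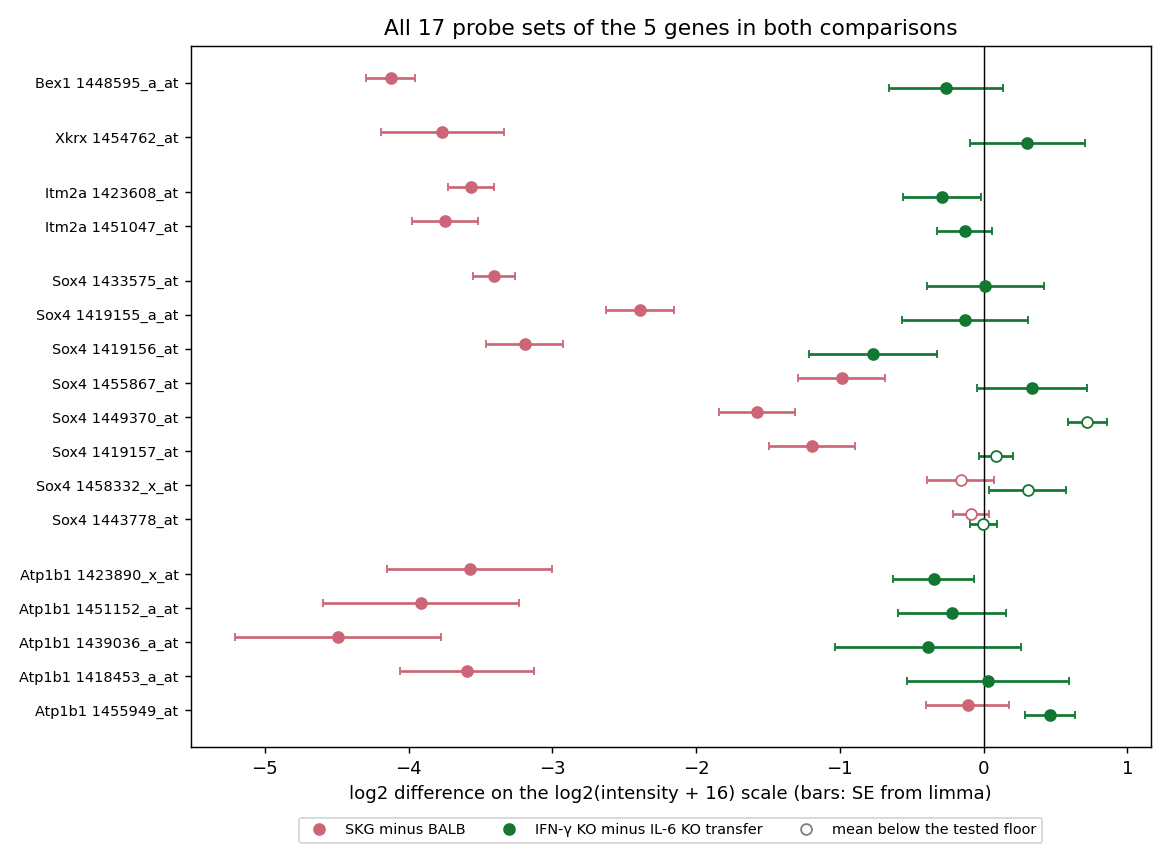
Log2 difference with its SE from limma for each of the 17 probe sets, SKG minus BALB in red and IFNg KO minus IL-6 KO transfer in green, with open circles below the tested floor. In red, 4 of the 5 Atp1b1 points lie from -4.49 to -3.57 and the Sox4 points above the floor from -3.40 to -0.99, and the green points scatter around 0.

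SKG replicate 3 differed from the other SKG arrays in part of these genes. Against the mean of SKG replicates 1 and 2 it was higher in Atp1b1 by 2.40 on the log2 scale, a rise exceeded by 9 of 12075 genes (0.0745%). Xkrx was higher by 1.48 there, exceeded by 68 genes (0.563%), and Itm2a by 0.52, exceeded by 11.1% of genes. Bex1 and Sox4 were higher by only 0.14 and 0.05. The same array also held more Cd8b1, the beta chain of the CD8 coreceptor, at 6.64 on the log2 scale against 4.78 and 4.89 in SKG replicates 1 and 2 and 7.92 to 7.96 in BALB. The summed intensity of both CD8 markers, Cd8a and Cd8b1, was 28.8, 50.5 and 125 in SKG replicates 1 to 3, 236 to 252 in BALB and 41.3 to 59.8 in the transfers. Cd8b1 was lower in SKG by limma (-2.48 ± 0.43, adjusted p = 0.0035), whereas the mean of Cd8a was higher in SKG (0.81 ± 0.29, limma adjusted p = 0.072). The part of CD8 transcripts in the values of the 5 genes was not tested. Without SKG replicate 3, Bex1 was at -4.15, Xkrx at -4.22 and Sox4 at -3.41.

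B cell and plasma cell transcripts also differed between the groups. The summed intensity of the B cell list, of which 6 of 7 genes were analysed, was 678 to 2397 in BALB and 2854 to 6684 in SKG. Cd79b and Pax5 were below the tested floor in both. The sum was 561 to 1332 in the IL-6 KO and 673 to 1546 in the IFNg KO transfer. In both transfers Ms4a1, Cd79a and Pax5 were below the floor. Ighm, the IgM heavy chain and the brightest gene of the list, was the 1 of 4 tested B cell genes called higher in SKG (1.93 ± 0.44, limma adjusted p = 0.012). The plasma cell list (4 of 4 genes analysed) summed to 2602 to 3404 in BALB and 5628 to 5866 in SKG. In the transfers, whose hosts lack RAG2, it summed to 4733 to 4936 with IL-6 KO and 4861 to 5318 with IFNg KO cells. Xbp1 was its brightest gene, at 12.31 in SKG and 11.30 in BALB, so the sum does not measure plasma cells alone. With all 12 arrays normalized together Xbp1 was 12.21 in the IL-6 KO and 12.25 in the IFNg KO transfer. Jchain was 6.15 and 6.27 there, against 8.39 in BALB and 9.39 in SKG. Sdc1 was also lower in the transfers than in BALB (5.08 and 4.90 against 5.63), and Derl3 was higher (5.72 and 6.70 against 5.57). Xbp1 and Derl3 were called higher in SKG (limma adjusted p = 0.00040 and 0.017), 2 of 4 against 15.7% of all genes. Jchain and Sdc1 did not pass (1.01 ± 0.43 and -0.64 ± 0.25, adjusted p = 0.12 and 0.085), and Sdc1 had every SKG array below every BALB array. Of the tested macrophage, dendritic, neutrophil, erythroid and stromal genes, 5, 3, 2, 1 and 1, none was called by limma, and 1, Cd68 of macrophages, was under an unadjusted p of 0.05 (-0.61 ± 0.26). Cd68 was lower with the replicate block (adjusted p = 0.025). The NK genes were all below the filter. The macrophage sums were 148 to 208 in BALB and 128 to 193 in SKG. Their part in the values of the 5 genes was not tested.

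Over all 12 arrays normalized together, BALB was the highest group for each of the 5 genes and overlapped no other group, but the order below it differed by gene. Bex1 was 10.64 ± 0.22 (SD, n = 3) on the log2 scale in BALB, 8.30 ± 0.84 in the IL-6 KO transfer, 8.04 ± 0.29 in the IFNg KO transfer and 6.53 ± 0.21 in SKG. Itm2a followed the same order, at 13.08 ± 0.11, 10.76 ± 0.55, 10.46 ± 0.20 and 9.52 ± 0.30. For both genes the transfer groups overlapped each other, and SKG lay below all transfer arrays. Without both transfer replicates 3 the SKG arrays were still the lowest, the Bex1 transfer means changed places (7.82 in IL-6 KO and 7.97 in IFNg KO), and the Itm2a transfer groups no longer overlapped (11.07 and 10.54).

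Xkrx was 8.60 ± 0.42 (SD, n = 3) in BALB, 5.76 ± 0.67 in the IFNg KO transfer, 5.45 ± 0.43 in the IL-6 KO transfer and 4.82 ± 0.89 in SKG, where neighbours below BALB overlapped. Atp1b1 was 11.31 ± 0.04 in BALB, 8.06 ± 0.41 in the IL-6 KO transfer, 7.75 ± 1.42 in SKG and 7.72 ± 0.39 in the IFNg KO transfer, again overlapping below BALB. The overlap of SKG with the transfers rested on SKG replicate 3 for both genes, as did the place of SKG in the Atp1b1 order. Without it SKG averaged 6.96 for Atp1b1 and 4.33 for Xkrx and lay below all transfer arrays. Without both transfer replicates 3 the Atp1b1 transfer groups no longer overlapped each other (7.84 in IL-6 KO and 7.51 in IFNg KO). Those of Xkrx still did (5.28 and 5.37). Sox4 was 11.08 ± 0.08 in BALB, 7.71 ± 0.23 in SKG, 6.74 ± 0.49 in the IFNg KO transfer and 6.72 ± 0.71 in the IL-6 KO transfer. Sox4 was thus the only one of the 5 whose SKG arrays lay above all 6 transfer arrays, with quantile normalization and with scaling. Without normalization the SKG and transfer values of Sox4 overlapped, and the transfer groups changed places. They also changed places without both transfer replicates 3 (7.13 in IL-6 KO and 6.985 in IFNg KO), where SKG still lay above them.

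Against the mean of the transfer arrays, BALB was higher by 2.48 for Bex1, 3.0 for Xkrx, 2.47 for Itm2a, 4.35 for Sox4 and 3.42 for Atp1b1 on the log2 scale. The SKG minus transfer difference was -1.64 for Bex1, -1.09 for Itm2a, -0.78 for Xkrx, -0.14 for Atp1b1 and 0.98 for Sox4. Without both transfer replicates 3 these were -1.36, -1.29, -0.50, 0.076 and 0.65 in the same order, so Atp1b1 turned sign. Without SKG replicate 3 they were -1.68, -1.26, -1.28, -0.94 and 0.96. Every BALB array lay above the other 9 arrays in 10.8% of 12176 genes, and every SKG array lay below the other 9 in 2.57%, the latter including Bex1 and Itm2a. Both held together in 44 genes (0.361%), again Bex1 and Itm2a among them. BALB and SKG values chose these genes, so the counts are a description. Age, labelled stimulation and tissue differ together between the 2 experiments and cannot be told apart.

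**Figure D4:**
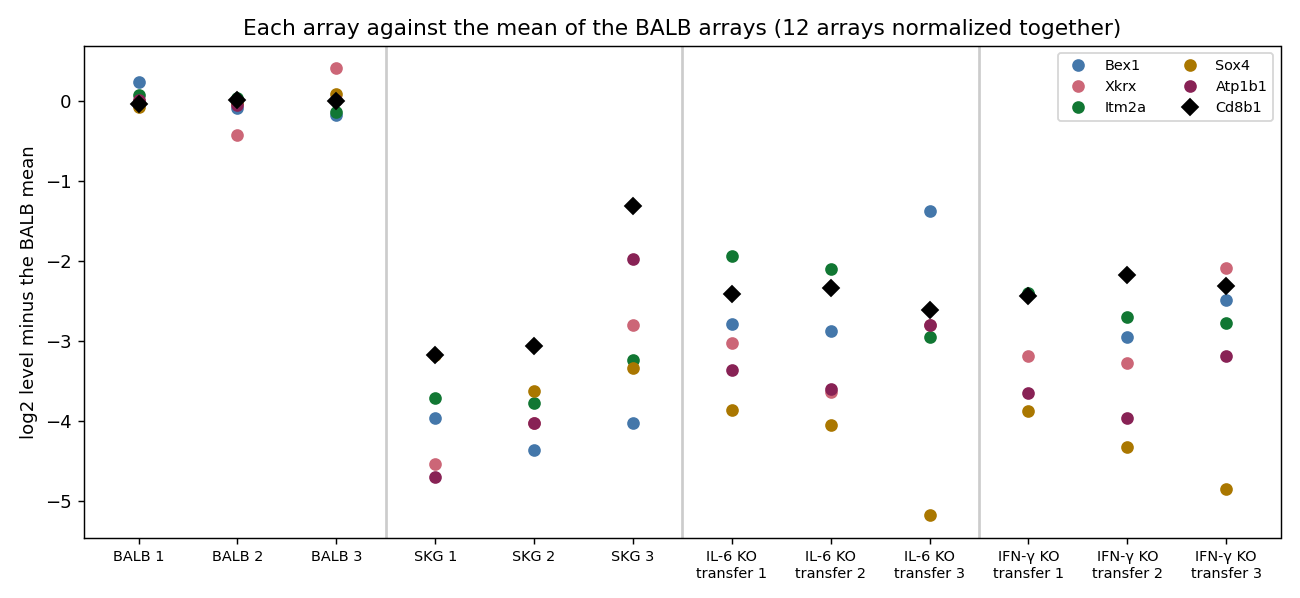
Log2 level of the 5 genes and of Cd8b1 on each of the 12 arrays, less the mean of the BALB arrays, after normalizing all arrays together. Points of Atp1b1, Xkrx and Cd8b1 are higher in SKG replicate 3 than in SKG replicates 1 and 2, and Sox4 lies farthest below its BALB mean of the 5 genes on each transfer array.

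The transfer comparison did not enter the choice of the 5 genes, so it could be tested. With 3 arrays per group 0 of the 5 passed in limma (all adjusted p = 1), and 0 were below an unadjusted p of 0.05, against 0.0652% of 12262 genes called higher, 0.0489% lower, 0.114% in either direction and 4.35% at the unadjusted threshold. All 5 overlapped between the transfer groups, where 4.53% of genes lay wholly lower and 5.41% wholly higher in IFNg KO. For Bex1 the IFNg KO minus IL-6 KO difference was -0.26 (95% interval -1.21 to 0.68), and it was 0.21 without IL-6 KO replicate 3. For Xkrx it was 0.30 (-0.58 to 1.19), and -0.08 without IFNg KO replicate 3. For Sox4 it was 0.01 (-0.93 to 0.96), but -0.40 without IL-6 KO replicate 3 and -0.23 without IFNg KO replicate 1. The direction of these 3 genes therefore rested on single arrays.

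Itm2a and Atp1b1 kept a negative sign in every alternative run on the gene's value. Among single probe sets 2 of the 5 of Atp1b1 were positive (0.03 ± 0.56 and 0.46 ± 0.17 SE). Itm2a differed by -0.29 (95% interval -0.93 to 0.35). In replicates 1, 2 and 3 its IFNg KO minus IL-6 KO difference was -0.45, -0.59 and 0.18, so replicate 3 went the other way. With replicates 1 and 2 of both groups alone, a setting added after the data were seen, Itm2a was lower in the IFNg KO transfer (-0.50 ± 0.10 SE, limma adjusted p = 0.023, the only 1 of the 5 called). In that setting 1.94% of genes were called lower and 2.13% higher. Atp1b1 differed by -0.34 (-1.01 to 0.32), with -0.29, -0.37 and -0.37 in the 3 replicates. The block by replicate number gave it an adjusted p of 0.22 in limma and the other 4 genes 0.39 to 0.98. It called 0.775% of genes higher and 1.01% lower. All intervals include 0 and reach at least 0.93 on one side, so differences of nearly 2-fold could not be told from none with these arrays.

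Relatives of the 5 genes were compared next, from a list of 34 of which 29 were on the array and 14 tested in SKG against BALB. Of these 3 fell and 1 rose (21.4% lower, against 11.8% of all genes), with a median log2 difference of -0.23 against 0.06 for all genes. Only 1 fell when BALB replicate 1, or SKG replicate 1, was left out.

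Of 4 Bex relatives 3 were tested and 2 fell, where 11.8% of all genes did, each by less than the Bex1 difference. Bex4 and Bex2, at 6.10 and 5.86 in BALB, lay too near the tested floor of 4.74 to fall as far as Bex1. Bex3 fell by 1.22 ± 0.18 (SE) in SKG, from 9.19 ± 0.26 to 7.97 ± 0.10 (SD, n = 3; limma adjusted p = 0.0016). Bex4, whose upstream sequence nearly equals that of Bex1, fell by 0.94 ± 0.22, from 6.10 ± 0.34 to 5.16 ± 0.10 (limma adjusted p = 0.014). Leaving out BALB replicate 1 gave Bex4 an adjusted p of 0.0501, leaving out SKG replicate 1 gave 0.0521, and no normalization gave 0.065. With 64 added in place of 16 the Bex4 difference was -0.48. Bex2 had a difference of -0.80 ± 0.27 and did not pass (limma adjusted p = 0.054). All 3 tested Bex relatives had every SKG array below every BALB array, as did 18.4% of all genes.

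In the other families 1 gene fell and 1 rose, and most of their tested genes were dim. Of the Itm2 relatives, Itm2c rose by 0.92 ± 0.13 (limma adjusted p = 0.0013), opposite to Itm2a. Itm2b fell by 0.34 ± 0.10 (limma adjusted p = 0.035). Leaving out replicate 1 or 2 of either group ended the Itm2b call (adjusted p from 0.078 to 0.13), and the median of its probe sets gave -0.026. The call also ended with no filter (0.060), no normalization (0.24), no trend (0.12) and all 12 arrays in one fit (0.17). The XK relatives tested, Xk, Xkr5 and Xkr8, had differences of -0.35, 0.23 and 0.19, and none passed, also at an unadjusted p of 0.05. Sox6 and Sox12 were at -0.20 and -0.13 and did not pass at either threshold. Of the sodium pump genes 4 were tested and 0 passed. Atp1b3, another beta subunit, was 12.14 ± 0.12 in BALB and 11.76 ± 0.25 in SKG (SD, n = 3; difference -0.38 ± 0.14, limma adjusted p = 0.072). It was the 1 pump gene under an unadjusted p of 0.05. The block by replicate number brought Atp1b3 past the threshold (adjusted p = 0.013).

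Of 10 listed genes of naive and resting T cells 8 were tested, of which 6 fell and 1 rose in SKG. This was 75% lower, against 11.8% of all genes (15.7% higher), with a median of -1.49 against 0.06. Klf2, a factor that maintains T cell quiescence, fell by 3.22 ± 0.32 (SE) and Ccr7, the lymph node homing receptor, fell by 3.19 ± 0.33. Bach2 fell by 1.90 ± 0.37, Igfbp4 fell by 1.68 ± 0.26, Lef1 fell by 1.29 ± 0.18 and Foxo1 fell by 1.0 ± 0.18 (limma adjusted p of the 6 from 0.00034 to 0.0057). Il7r, the interleukin-7 receptor, rose by 1.57 ± 0.15 (adjusted p = 0.00032), and S1pr1 was at -0.06 ± 0.24 (adjusted p = 0.90). Igfbp4 did not pass with all 12 arrays in one fit (adjusted p = 0.054).

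Genes of thymocytes and recent thymic emigrants, which express Itm2a and Sox4, did not share a direction. Of 6 tested 2 fell and 3 rose, against 11.8% lower and 15.7% higher among all genes, with a median of 0.47. Cd24a, a surface marker of immature T cells, fell by 2.42 ± 0.22 and Plxnd1, which guides thymocyte migration, fell by 1.51 ± 0.24 (limma adjusted p = 0.00020 and 0.0025). Themis, a T cell receptor signalling protein of thymocytes, rose by 2.03 ± 0.18 and Ccr9, a gut and thymus homing receptor, rose by 1.68 ± 0.37 (adjusted p = 0.00021 and 0.011). Satb1 rose by 0.45 ± 0.11 (adjusted p = 0.013). The Satb1 call ended on leaving out replicate 1 or 2 of either group (adjusted p from 0.054 to 0.058) and without normalization (0.54). It also ended with scaling (0.054), with no trend (0.069) and with all 12 arrays in one fit (0.39). With the median of probe sets Themis rose by 1.23, and with 64 added Plxnd1 fell by 0.87.

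Of 12 genes of the TGF-beta pathway and the Sox4 axis of helper cells, all tested, 7 fell and 1 rose in SKG (58.3% lower, against 11.8% of all genes), with a median of -0.85 against 0.06. The ligand Tgfb1 fell by 1.46 ± 0.16 (SE, limma adjusted p = 0.00053). Among receptors Tgfbr3 fell by 2.11 ± 0.20, Tgfbr2 fell by 0.86 ± 0.17 and Tgfbr1 fell by 0.84 ± 0.21 (adjusted p = 0.00026, 0.0066 and 0.016). The inhibitors Smad7, Ski and Skil fell by 1.18 ± 0.21, 1.15 ± 0.19 and 0.96 ± 0.22 (adjusted p = 0.0043, 0.0031 and 0.011). Tgfbr1 did not pass without SKG replicate 1 or 2 (adjusted p = 0.066 and 0.062), nor Skil without SKG replicate 1 (0.052). Without normalization Tgfbr1, Tgfbr2 and Skil did not pass (0.081, 0.053 and 0.071), and with the median of probe sets Tgfbr1 and Smad7 did not (0.16 and 0.053). That median also gave smaller falls of Tgfbr3 (-1.13) and Tgfb1 (-0.94), which passed. With all 12 arrays in one fit Skil did not (0.14).

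The signal carriers Smad2, Smad3 and Smad4 were at -0.44, -0.65 and -0.17 and did not pass (limma adjusted p = 0.066, 0.070 and 0.60). Smad2 passed with the replicate block (adjusted p = 0.035). Il5, the cytokine gene that Sox4 is known to hold back, rose by 2.52 ± 0.52 in SKG, from 7.19 ± 0.68 to 9.70 ± 1.10 (SD, n = 3; adjusted p = 0.0075). The part of Sox4 in the Il5 values was not tested. Gata3 was at -0.15 ± 0.24 (adjusted p = 0.70). In these lists, chosen with earlier results known, no enrichment was tested.

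**Figure D5:**
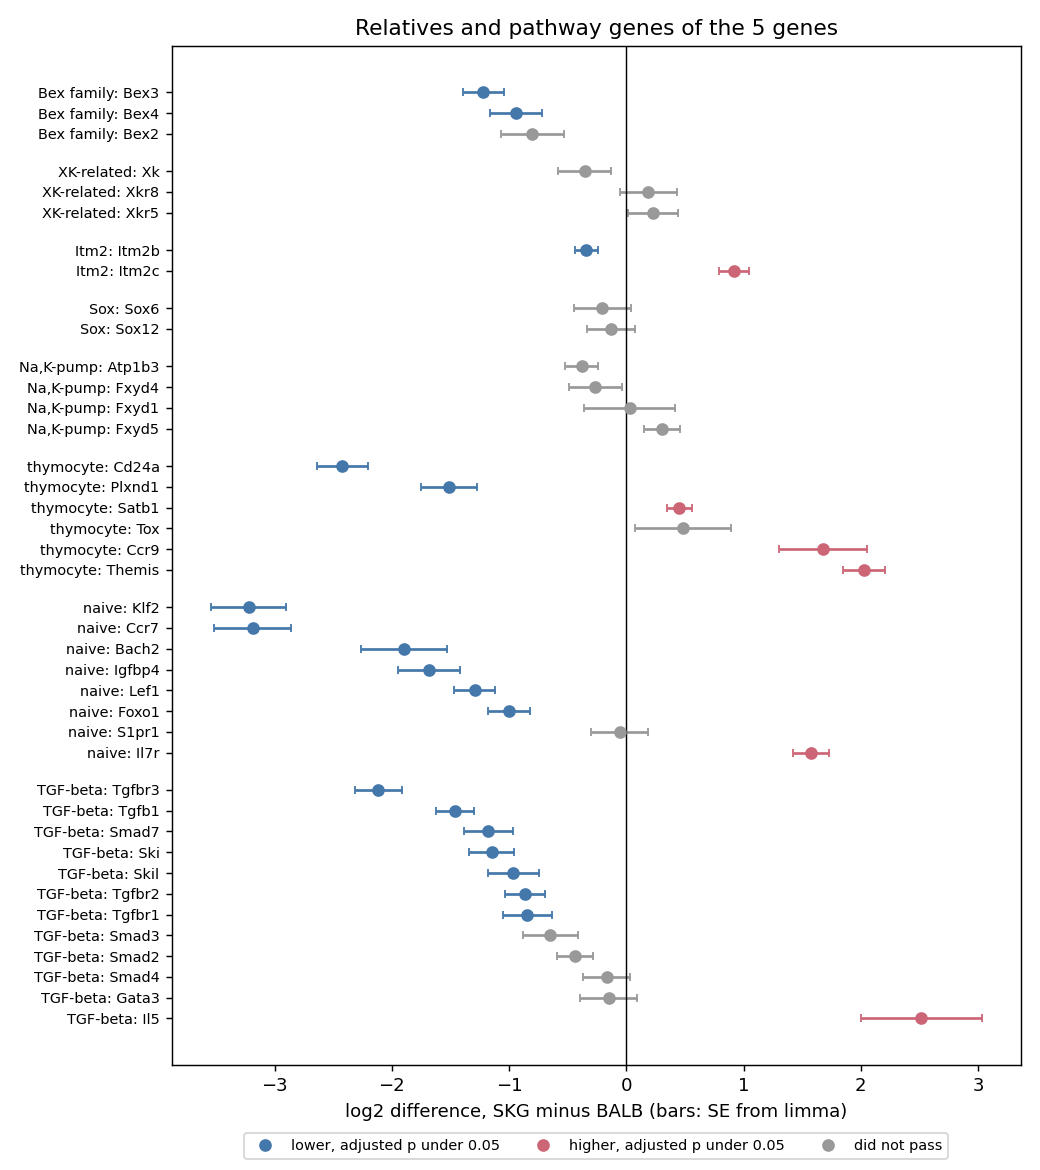
Log2 difference, SKG minus BALB, with its SE from limma for the tested relatives and listed pathway genes, coloured by call. The 3 Bex relatives, 7 of 8 naive genes and 11 of 12 TGF-beta genes lie left of 0. XK, Sox and pump relatives are grey and close to 0, and most of them were dim.

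In the transfer comparison none of these lists had a called gene. Of 12 tested relatives 0 passed in limma, also 0 at an unadjusted p of 0.05. Under that unadjusted threshold were 1 of 8 naive genes (Ccr7), 1 of 6 thymocyte genes (Themis) and 2 of 12 TGF-beta genes (Il5 and Tgfbr1), against 4.35% of all genes. Il5 was 9.64 ± 1.71 (SD, n = 3) in the IL-6 KO and 6.52 ± 0.83 in the IFNg KO transfer, between which Sox4 differed by 0.01. Il5 had a difference of -3.12 ± 0.82 and Gata3 of -0.68 ± 0.32 (limma adjusted p = 0.66 and 1). Blocking by replicate number, both were lower in the IFNg KO transfer (adjusted p = 0.0086 and 0.0096), where the block called 1.01% of genes lower. Derl3 of the plasma cell list was higher there with the block (0.98, adjusted p = 0.021, without it 0.25). With replicates 1 and 2 alone Il5, Gata3, Ccr7, Il7r and Themis were lower (adjusted p from 0.0027 to 0.038) and Tgfbr1 and Itm2b higher (adjusted p = 0.033 and 0.035).

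Bex1, Xkrx and Itm2a lie on the X chromosome, Sox4 on chromosome 13 and Atp1b1 on chromosome 1. Of 13 genes lower by at least 8-fold in SKG, 4 were X-linked (Bex1, Xkrx, Itm2a and Zcchc12), where 3.07% of tested genes are. Bex1, Xkrx and Itm2a had been chosen by these same SKG and BALB values, so this share is a description. Apart from the chosen genes, only Zcchc12 of this set was X-linked, and no enrichment was tested. Over the whole chromosome the shares were close to the autosomal ones: 46 of 371 tested X-linked genes were lower by limma (12.4%), and 43 of 368 (11.7%) without the 3 genes, against 11.8% of autosomal genes. X-linked genes called higher made up 22.1%, against 15.5% on autosomes.

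The genes whose 12-array profile was most like each member were found by the root mean square difference of centred log2 values over 12175 genes. This distance includes the BALB and SKG values that chose the members, and the size of each difference counts in it. Genes with a large fall in SKG are therefore favoured as neighbours, and the neighbours named are a description with no test. Most of these neighbours depended on SKG replicate 3 and the transfer replicates 3: with the other 9 arrays the nearest 3 shared 1 gene with those below for Bex1 (Itm2a), 2 for Xkrx (Cnksr3 and Tax1bp3), 1 for Sox4 (Amigo2) and 0 for Itm2a and Atp1b1. Closest to Bex1 were Ephx1, an epoxide hydrolase (0.53), Itm2a (0.63) and the heme-regulated repressor Bach1 (0.68). Ephx1 was 9.10 ± 0.23 (SD, n = 3) in BALB, 6.14 ± 0.43 in SKG, and 7.12 ± 0.26 and 7.34 ± 0.16 in the IL-6 KO and IFNg KO transfers. It shares the Bex1 order of BALB highest, transfers between and SKG lowest. Closest to Itm2a were the kinase gene Rps6ka6 (0.40), the fatty acid amide hydrolase Faah (0.42) and the deubiquitinase Otud1 (0.44).

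Xkrx and Atp1b1 had the scaffold gene Cnksr3 as nearest profile, at 0.41 and 0.37. Next for Xkrx came Tax1bp3 (0.46) and the chaperone Hspa4l (0.47), and for Atp1b1 came Klf2 (0.37) and Plaur, the urokinase receptor (0.37). Cnksr3 was 7.15 ± 1.24 (SD, n = 3) in SKG against 10.56 ± 0.21 in BALB, with a wide SKG spread like that of Atp1b1. Xkrx and Atp1b1 were also close to each other, at 0.47, and at 0.30 over the 9 arrays. For Sox4 the nearest were Ccr7 (0.64), Cxcl10 (0.65) and the adhesion gene Amigo2 (0.66), and Sox4 and Bex1 differed by 1.34. These distances were larger than those of Xkrx and Atp1b1 on the 12 arrays only. Over the 9 arrays the nearest gene to Sox4 was at 0.14 and Amigo2 at 0.29. The nearest genes to Xkrx and Atp1b1 were then at 0.29 and 0.25. Amigo2 was 8.09 ± 0.29 in BALB, 5.20 ± 0.43 in SKG, 4.68 ± 0.40 in the IL-6 KO transfer and 4.41 ± 0.29 in the IFNg KO transfer, with SKG above both transfers as for Sox4.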

How the data were processed

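Deposited linear intensities, 1 per probe set and array, were used as the authors gave them. The software and normalization behind them were not given in the sources used here. Per the labels' protocols, RNA was extracted with RNeasy and biotin-labelled by in vitro transcription. Of 45101 probe sets 64 controls were left out, 34945 named 1 gene and 9160 were unnamed here. Each of 18193 genes was represented by its probe set of highest mean on the 12 arrays.

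From the deposited intensities log2(intensity + 16) was computed and quantile normalized within the 6 arrays of a comparison (12 together for levels over all groups). A gene was tested where its mean reached the 40th percentile of probe sets, a floor of 4.74 for SKG against BALB and 4.72 for the transfers on the log2 scale. All 5 genes passed this filter in both comparisons. Xkrx did so in the first with SKG replicates 1 and 2 below the floor. The fits used limma 3.58.1 in R 4.3.3 (lmFit, eBayes with trend), two-sided, Benjamini-Hochberg adjusted over all tested genes, threshold 0.05. Precision is limited by the number of arrays.

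The genes and lists were chosen with earlier results of these data known. Named genes are the 5, their listed relatives and pathway genes past the threshold, and the 3 nearest profiles of each.

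Replicate numbers were checked for pairing by correlating deviations from group means: same-numbered arrays gave 0.13, 0.20 and 0.33 for SKG and BALB, and 0.46, 0.45 and 0.70 for the transfers. All passed 0.1, so the blocked value is printed beside each named gene whose call the block altered. Most of this structure set replicate 3 apart from the others. Replicate 1 against replicate 2 gave 0.17 and 0.17 for SKG and BALB, and 0.44 and 0.41 for the transfers. The check therefore does not show that replicates 1 and 2 were paired by number. Alternatives were added constants of 1 and 64, other filters, no normalization, scaling, other probe set rules, no trend, all 12 arrays in one fit, the block, array weights, leaving out arrays, and replicates 1 and 2 alone or replicates 3 left out of the 12-array values (both chosen after seeing the data).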

Additional observations from a re-analysis of the deposited data

How the results depend on the processing

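The SKG minus BALB differences of the 5 genes were negative in every alternative run, and 0 of the 5 passed in the transfer comparison in all of them but 1. With replicates 1 and 2 of both groups alone 1 passed, Itm2a (-0.50, limma adjusted p = 0.023). Signs in the transfer comparison turned for Bex1 with array weights (0.16), with replicates 1 and 2 alone (0.15) and in a leave-one-out range of -0.52 to 0.21. They turned for Sox4 with a constant of 64 (-0.0052), no normalization (-0.038), array weights (-0.078), replicates 1 and 2 alone (-0.15) and in a leave-one-out range of -0.40 to 0.27, and for Xkrx in a leave-one-out range of -0.081 to 0.52. Across the 4 groups the SKG minus transfer difference of Atp1b1 turned to 0.076 without both transfer replicates 3. The cause was not tested. In the transfer comparison Xkrx was not tested under the 60th percentile filter, nor Sox4 with the median of probe sets, since each lay below the floor.

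Counts of all genes moved more. In SKG against BALB 1901 were higher and 1423 lower. Without normalization these were 1130 and 830, with array weights 2917 and 2209, and with replicates 1 and 2 alone 2866 and 2205. With all probe sets separately 2672 were lower. Leaving out single arrays gave 1114 to 2194 higher and 875 to 1713 lower. X-linked genes lower were 29 without normalization. X-linked genes higher were 127 with array weights, 124 with replicates 1 and 2 alone and 52 to 99 leaving out single arrays. Relatives lower were 1 without normalization, 5 with array weights and 1 to 4 leaving out single arrays, and 2 relatives were higher with array weights and with replicates 1 and 2 alone. TGF-beta genes lower were 4 without normalization.

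In the transfer comparison 8 genes were higher and 6 lower. With the replicate block these were 95 and 124, with array weights 96 and 91, and with replicates 1 and 2 alone 262 and 239. Genes higher were 5 with no filter, 4 with the median of probe sets and 22 with all 12 arrays in one fit. Leaving out single arrays gave 1 to 16 higher and 1 to 10 lower. X-linked genes lower were 1 with the block, 6 with array weights, 10 with replicates 1 and 2 alone and 0 to 1 leaving out single arrays. X-linked genes higher were 2 with a constant of 64, with scaling and with all 12 arrays in one fit, 0 with the 60th percentile filter and the median of probe sets, 6 with the block, 3 with array weights, 9 with replicates 1 and 2 alone and 0 to 1 leaving out single arrays. TGF-beta genes lower were 2 with the block, 1 with array weights and 2 with replicates 1 and 2 alone, where 1 was higher. There 1 relative was higher, 1 thymocyte gene lower and 2 naive genes lower. The block changed the call of no member. In SKG against BALB, the actin 3'/5' ratio and some CD8, B cell and plasma cell markers moved with the groups. The added constant limits what dim probe sets such as that of Xkrx can show.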
